A study of Danio rerio with 4 samples.

Results

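RNA of 8 genes, out of 24235 in the table, was measured in whole zebrafish embryos at the 6-somite stage. These 8 are known from germ plasm or the egg, and whether their RNA at this stage was maternal was not tested. The genes were chosen by name and not by their values, though earlier results of these data were known. They were ddx4, dnd1, piwil1, ca15b and buc of the germ line, zar1 of the oocyte, and pou5f3 and nanog of early genome activation. A ninth gene of the set, nanos3, has no row under that symbol and was not analysed here. The table's nanos1 row is the gene of another Nanos protein and was not used in its place. Wild-type AB embryos gave 2 of the 4 libraries, and npas4l bns297/bns297 embryos, which carry the bns297 allele on both copies, gave the other 2. Both groups were raised in E3 medium at one temperature to the same stage, and the labels name no other treatment. npas4l encodes a transcription factor without which few vessel and blood cells are made, and the study compared the genotypes to find RNAs that change in its absence. The labels do not give the number of embryos or clutches behind a library, nor the strain background of the mutants. The p-values therefore measure spread between these libraries, mostly pooled over genes of similar level, and this spread may be technical.

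In zebrafish the germ line is set aside by germ plasm, a granular mixture of RNA and protein that the mother deposits in the egg. Cells that inherit it become primordial germ cells, which are few, keep germ plasm RNAs stable while other cells degrade them, and migrate to the future gonad during somite stages. Most other maternal RNAs are cleared when the embryo turns on its own genome, a step driven by the maternal factors Pou5f3, Nanog and Sox19b.

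The values are gene counts that the authors scaled by library and rounded, called normalised values below. Their spacing shows that 1 read was worth between 0.898 and 1.09, so a value is close to a number of reads. Libraries held between about 7210000 and 9020000 reads in genes. All 9 markers of tissues present at this stage, such as myod1 and pax2a, had values from 163 to 815 in every library. Of 9 markers of later or adult tissue, 6 had a row, and 5 of these 6 reached at most 11 in any library; all 5 were at 0 in at least 1 library. The sixth, zp3b, which encodes an egg envelope protein, was at 19 to 38. Mutant replicate 2 stood apart, since 299 of its genes were at 0 (2444 to 3000 elsewhere), with higher values at weakly expressed genes. Values of different genes are not ranked against each other below, because no transcript lengths were used here.

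None of the 8 genes passed the test between mutants and wild type, the 3 weakest of them in a fit with no filter on low values. Their values ranged from 1 to 104. pou5f3 stood 1.53-fold higher in mutants, piwil1 1.77-fold, nanog 1.87-fold and buc 4.33-fold in the ratio of group means, while zar1 stood at 0.393 of its wild-type mean. ddx4, dnd1 and ca15b had overlapping groups. The test was limma-trend on log2(value + 1) over the 16653 genes whose mean reached 10 across libraries. Benjamini-Hochberg adjustment ran over all of them, with a threshold of 0.05. Standard errors of limma came mostly from the spread of all genes at a similar level (83.6 prior degrees of freedom). Little came from the gene's own replicates. 5 of the 8 genes were tested (ddx4, dnd1, piwil1, pou5f3 and nanog), and 0 passed in either direction, against 0.048% of all genes tested (0.006% higher, 0.042% lower). Only pou5f3 had an unadjusted p under 0.05, 1 gene of 5 against 3.75% of all genes, and limma-voom also passed 0 of the 5. The other 3, ca15b, buc and zar1, fell below the mean value of 10.

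**Figure D1:**
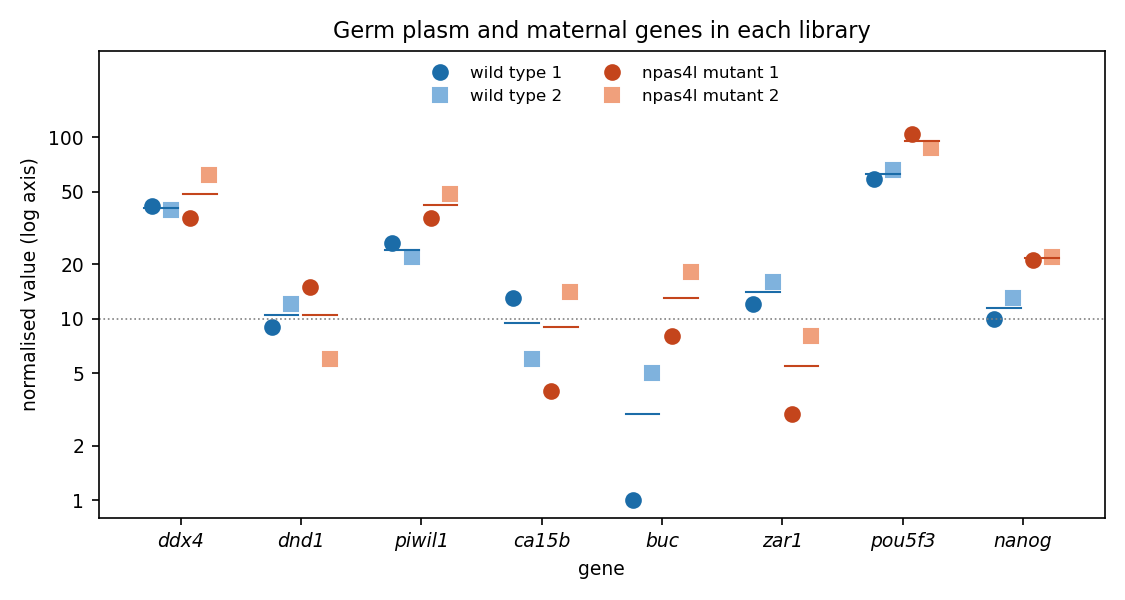
Normalised value (log axis) of each gene in wild-type replicates 1 and 2 and mutant replicates 1 and 2, with a short line at each group mean and a dotted line at the mean value of 10 needed for the test. pou5f3, nanog, piwil1 and buc lie above both wild-type libraries in both mutant libraries, zar1 lies below them, and the other 3 genes overlap.

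ddx4 encodes Vasa, the DEAD-box RNA helicase of germ granules and the standard marker of germ cells. Its gene lies on chromosome 10 (ENSDARG00000014373, 6925354 to 6947279, plus strand, GRCz10). Its values were 42 and 40 in wild-type replicates 1 and 2 against 36 and 62 in the mutant replicates of those numbers. The wild-type libraries were close together, and the mutant libraries lay on either side of them. Means were 41.0 ± 1.41 in wild type and 49.0 ± 18.4 in mutants (mean ± SD of n = 2 libraries, as for every later gene). The log2 fold change was 0.20 ± 0.39 (SE), with a 95% interval from -0.58 to 0.98 and a limma adjusted p of 1. That interval runs from 0.671-fold to 1.97-fold on the scale of value + 1. Without mutant replicate 2 the log2 fold change was -0.18, and without mutant replicate 1 it was 0.59. In bulk RNA of whole embryos, fewer germ cells and less RNA per germ cell cannot be told apart.

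dnd1 encodes Dead end, an RNA-binding protein that shields germ cell RNAs from microRNAs and is required for germ cells to survive and migrate. Its gene is on chromosome 14 (ENSDARG00000022813, 7091395 to 7102955, minus strand). It was at 9 and 12 in wild type against 15 and 6 in mutants, replicate 1 first. The highest and the lowest library were both mutant, and the group means were equal at 10.5 ± 2.12 and 10.5 ± 6.36. The log2 fold change was -0.11 ± 1.08, with a 95% interval from -2.26 to 2.05. A 4-fold change in either direction thus lay inside the interval. The value was 0.49 without mutant replicate 2 and 0.08 without wild-type replicate 2.

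piwil1 encodes Ziwi, a Piwi protein that binds small RNAs against transposons in germ cells. Its gene spans 74.6 kb of chromosome 8 (ENSDARG00000041699, 44231274 to 44305828, minus strand), the longest span of the 8. Values were 26 and 22 in wild type against 36 and 49 in mutants. Both mutant libraries lay above both wild-type libraries, with mutant replicate 2 the highest. Means were 24.0 ± 2.83 and 42.5 ± 9.19, and the log2 fold change was 0.79 ± 0.48 with a 95% interval from -0.16 to 1.73. The limma adjusted p was 1 and the unadjusted p 0.102. Without mutant replicate 2 the log2 fold change was 0.57. fzd10, which encodes a Wnt receptor, lies inside the piwil1 span on the same strand and covers 4.0% of it, at 666 and 751 in wild type against 712 and 660 in mutants. How reads in that overlap were counted is not given, and their part in the piwil1 value was not tested.

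ca15b encodes a carbonic anhydrase whose RNA is found in zebrafish germ plasm. It lies on chromosome 12 (ENSDARG00000040510, 4258265 to 4264718, minus strand). Values were 13 and 6 in wild type against 4 and 14 in mutants, so that replicates differed more within each group than the means did between groups (9.5 ± 4.95 and 9.0 ± 7.07). In a fit with no filter the log2 fold change was -0.19 ± 1.02, with a 95% interval from -2.19 to 1.80. It ran from -0.99 without mutant replicate 2 to 0.60 without mutant replicate 1.

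buc encodes Bucky ball, the protein that assembles the Balbiani body of the oocyte and gathers germ plasm. It lies on chromosome 2 (ENSDARG00000096095, 28199466 to 28203862, plus strand). It was at 1 and 5 in wild type against 8 and 18 in mutants. The groups did not overlap, but the wild-type mean of 3.0 ± 2.83 rested on about 7 reads in all, against about 26 reads in mutants with a mean of 13 ± 7.07. The ratio of those reads was 3.76 with an exact 95% interval from 1.59 to 10.3, which covers counting error only. The fit with no filter includes spread between libraries, estimated mostly from all genes of similar level. There the log2 fold change was 1.92 ± 1.18, with a 95% interval from -0.40 to 4.23 (limma adjusted p 0.984). Without mutant replicate 2 the log2 fold change was 1.38.

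The 5 germ line genes together summed to 91 and 85 in wild type and to 99 and 149 in mutants. As shares of each library's summed values these were 11.4 and 10.5 per 1000000 in wild type, 12.0 in mutant replicate 1 and 20.5 in mutant replicate 2. Mutant replicate 1 was close to the wild-type libraries, and the higher mutant mean came mostly from mutant replicate 2. For ddx4, dnd1 and ca15b alone the sums were 64 and 58 in wild type against 55 and 82 in mutants, which overlapped.

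zar1 encodes Zygote arrest protein 1, an RNA-binding protein of the oocyte that holds back translation of maternal RNAs. It lies on chromosome 20 (ENSDARG00000019706, 23524714 to 23527239, minus strand). Values were 12 and 16 in wild type against 3 and 8 in mutants. It was the 1 gene of the 8 with both mutant libraries below both wild-type libraries, at means of 14.0 ± 2.83 and 5.5 ± 3.54. About 29 reads in wild type stood against about 11 in mutants, a ratio of 0.384 with an exact 95% interval from 0.173 to 0.791 for counting error only. In the fit with no filter the log2 fold change was -1.31 ± 1.01, with a 95% interval from -3.28 to 0.67 and a limma adjusted p of 0.984. It was -0.72 without mutant replicate 1 and -1.89 without mutant replicate 2.

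pou5f3 encodes a POU-domain factor of the family of mammalian Oct4. Its RNA is both maternal and made by the embryo, where it is later found in the neural plate, so its level at this stage need not be maternal. It lies on chromosome 21 (ENSDARG00000044774, 13589124 to 13593983, minus strand). Values were 59 and 66 in wild type against 104 and 87 in mutants, and both mutant libraries lay above both wild-type libraries. Means were 62.5 ± 4.95 and 95.5 ± 12.0. The log2 fold change was 0.60 ± 0.29, with a 95% interval from 0.03 to 1.17 and an unadjusted p of 0.0389. It did not pass after adjustment over all genes (limma adjusted p 1, range 0.733 to 1 over the alternatives). The unadjusted p was 0.0527 among genes with a mean value of 50 or more, and from 0.0721 to 0.253 with each library left out, so the interval then included 0. Mutant replicate 1 was the highest library, and without mutant replicate 2 the log2 fold change was 0.73.

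nanog encodes a homeodomain factor that acts with Pou5f3 at the first zygotic genes and sets up the yolk syncytial layer. It lies on chromosome 24 (ENSDARG00000075113, 12689785 to 12694862, plus strand). Values were 10 and 13 in wild type against 21 and 22 in mutants. The mutant libraries were almost equal and lay above both wild-type libraries, with means of 11.5 ± 2.12 and 21.5 ± 0.707. About 23 reads in wild type stood against about 43 in mutants, a ratio of 1.89 with an exact 95% interval from 1.11 to 3.29 for counting error only. The log2 fold change was 0.86 ± 0.77, with a 95% interval from -0.68 to 2.39 and a limma adjusted p of 1. It was 0.83 without mutant replicate 2. Together pou5f3 and nanog took 8.64 and 9.75 per 1000000 of the summed values in wild type against 15.2 and 15 in mutants. The exact interval of the read ratio, for counting error only, included 1 for ddx4 (0.873 to 1.6), dnd1 (0.526 to 1.95) and ca15b (0.474 to 1.93). For piwil1 (1.26 to 2.64) and pou5f3 (1.22 to 1.93) it lay above 1.

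**Figure D2:**
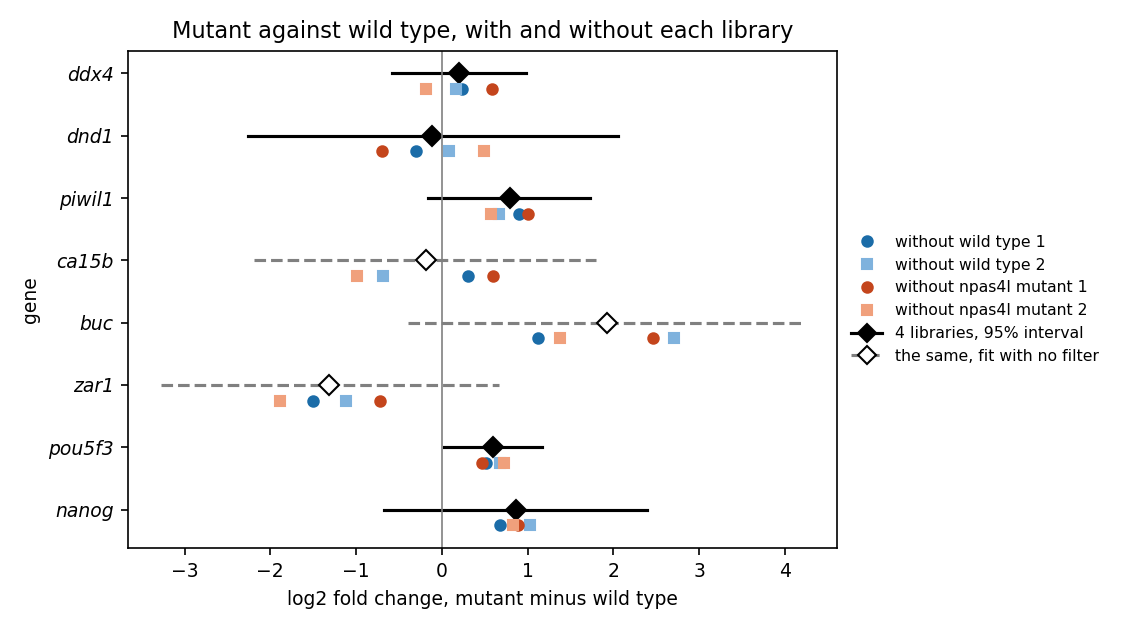
Log2 fold change of each gene, mutant minus wild type, with its 95% interval over 4 libraries (filled diamonds: tested genes; open diamonds and dashed lines: fit with no filter), and below it the value with each library left out in turn. Over 4 libraries the interval of pou5f3, from 0.03 to 1.17, lies above 0, which is lost with any library left out, the intervals of the other 7 genes include 0, and ddx4, dnd1 and ca15b change sign with the library left out.

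The groups did not overlap in 5 of the 8 genes, 4 higher and 1 lower in mutants. Over all genes of the table this held for 27.8%, with 15.6% higher and 12.2% lower. Among genes under the mean value of 10, where buc and zar1 lie, 20.6% were higher and 3.61% were lower in both mutant libraries. Every gene of the table reached at least 4 in some library. Genes that did so only in mutant libraries count in the shares of 15.6% and 20.6% that were higher. With 2 libraries a group, an exact permutation test of a single gene cannot go below p = 0.333 (two-sided), so no separation of the groups can pass by itself. The median log2 fold change of the 5 tested genes was 0.60, against -0.02 over all genes tested and 0.11 over the 8781 tested genes with a mean value under 100. Without mutant replicate 2 these medians were 0.57, 0.01 and 0.00 in the same order. The 0.60 is the value of pou5f3 alone, and the 5 tested genes ran from -0.11 to 0.86.

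Mutant replicate 2 was the highest library in 5 of the 8 genes: ddx4, piwil1, ca15b, buc and nanog. Among all genes it was the highest in 26.2% of those tested and in 68.1% of those under the filter. Every gene of the table reached at least 4 in some library, and genes that did so only in mutant replicate 2 count in these shares. The excess of mutant replicate 2 over the other 3 libraries grew as level fell and as genomic span rose. Each gene is therefore set here beside all genes of its own class of level and span. piwil1 exceeded the mean of the other 3 by 0.81 on the log2(value + 1) scale, where 741 genes with a span of at least 50 kb and a mean of 10 to 30 had a median of 0.69. buc exceeded it by 2.00 and ca15b by 0.93, against a median of 0.62 over 1850 genes with a span under 10 kb and a mean of 3 to 10. For ddx4 the excess was 0.65 against 0.11, and for nanog 0.61 against 0.24. pou5f3 was at 0.23 against -0.08, while zar1 was at -0.09 against 0.24 and dnd1 at -0.87 against 0.52. The part of these library differences in the values of piwil1, buc, ca15b and ddx4 was not tested.

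**Figure D3:**
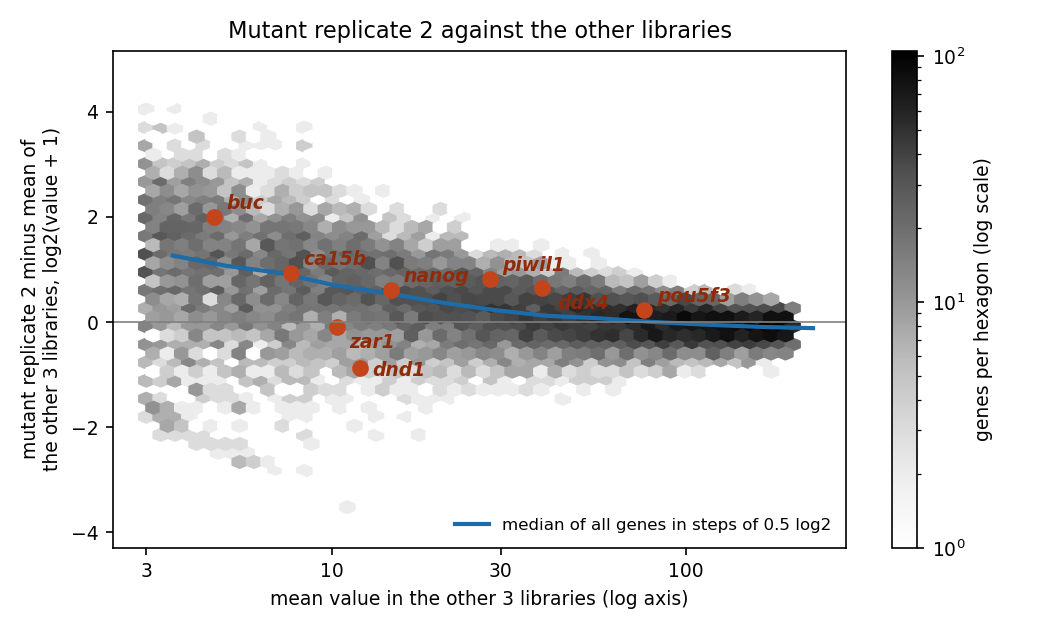
Difference of mutant replicate 2 from the mean of the other 3 libraries on the log2(value + 1) scale, against the mean value of those 3 (log axis), for all genes (grey hexagons), their running median (blue line) and the 8 genes (red points). The median rises as level falls, buc lies well above it at 2.00, and dnd1 at -0.87 and zar1 at -0.09 lie below it.

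Other genes of the same processes were taken from 5 lists, and none of these passed the test. Of 30 other germ plasm and germ cell genes, 25 had a row and 18 were tested. Of these, 0 rose, 0 fell and 18 did not pass, with 0 at an unadjusted p under 0.05. By limma-voom 0 of the 18 passed, with 1 at an unadjusted p under 0.05. In the limma-trend fit the median log2 fold change of the 18 was 0.06. The 3 with the smallest p-values were ddx43, which encodes a DEAD-box helicase (0.25 ± 0.16), hook2, which encodes a microtubule adaptor (-0.29 ± 0.22), and piwil2, the second Piwi gene (1.39 ± 1.13). piwil2 was at 13 and 2 in wild type and 16 in both mutant libraries, so it rested on 1 low wild-type library. The tudor-domain genes tdrd6 and tdrd7a, which encode scaffold proteins of germ granules, were chosen after their values were seen. tdrd6 was at 66 and 85 in wild type against 44 and 93 in mutants, and tdrd7a at 24 and 55 against 29 and 54. Both overlapped between the groups, as ddx4 did.

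Of 33 oocyte and egg genes, 24 had a row and only 13 reached the mean value of 10. In these 13, 0 rose and 0 fell (0 at an unadjusted p under 0.05, 0 by limma-voom), and the median log2 fold change was -0.03. Values in the 13 reached 3857, and whether their RNA came from the egg was not tested. buc2l, a paralogue of buc, had the smallest p-value and stood at 10 and 0 in wild type against 7 and 46 in mutants, with a log2 fold change of 2.55 ± 1.45. Its groups overlapped, and mutant replicate 2 alone was high. trip10a, which encodes an adaptor of membrane and actin, was at -0.31 ± 0.24, and gdf3, the maternal Vg1 signal, at 0.59 ± 0.50. Values of gdf3 were 40 and 15 in wild type against 37 and 38 in mutants, so its groups overlapped. zar1l, the paralogue of zar1 and chosen after its values were seen, was at 3 and 0 in wild type against 7 and 2 in mutants, too few reads to compare with zar1.

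Among 24 tested partners and targets of Pou5f3 and Nanog, limma-voom passed 0, with 1 at an unadjusted p under 0.05. In the limma-trend fit 0 rose and 0 fell (0 at an unadjusted p under 0.05), with a median of -0.04. The smallest p-values belonged to sall4, which encodes a zinc-finger factor of stem cells (-0.21 ± 0.14), ndr1, which encodes a Nodal ligand (1.17 ± 0.96, at 7 and 8 in wild type against 13 and 25 in mutants), and klf17, which encodes a Krüppel-like factor (-0.18 ± 0.16). sox19b, the third maternal factor beside pou5f3 and nanog and chosen after its values were seen, was at 228 and 271 in wild type against 256 and 263 in mutants. The log2 fold change of sox19b was 0.06 ± 0.18, with a 95% interval from -0.30 to 0.42. mxtx2, a target of Nanog in the yolk syncytial layer and also chosen after its values were seen, was listed at 0 in 3 libraries and at 7 in mutant replicate 2. Every gene of the table reached at least 4 in some library, and mxtx2 did so only in that one. Over the 4 libraries, the gene of the germ line, oocyte and activation lists with the profile nearest to that of pou5f3 was grip2a, whose RNA is localised in the egg, out of 55 candidates. Its values were 76 and 87 in wild type against 116 and 86 in mutants, and its centred profile differed from that of pou5f3 by 0.17 (root mean square, log2). The groups of grip2a overlapped, with a log2 fold change of 0.29 ± 0.27. The next candidates, at 0.19 and 0.20, were almost as near.

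All 33 genes of maternal RNA clearance that had a row were tested, and 0 rose and 0 fell (0 at an unadjusted p under 0.05, 0 by limma-voom), with a median of -0.05. cnot8, of the deadenylase complex that shortens RNA tails, was at 0.30 ± 0.19, zfp36l1b, which encodes a binder of AU-rich elements, at -0.39 ± 0.28, and dcp1a, of the decapping complex, at 0.34 ± 0.25. Of 20 tested genes that guide germ cell migration, 0 rose and 0 fell (0 at an unadjusted p under 0.05, 0 by limma-voom), with a median of -0.07. hmgcrb, of the isoprenoid pathway needed for germ cell migration, was at -0.33 ± 0.19. The growth factor receptor gene igf1ra was at -0.22 ± 0.15 and ezra, which encodes a linker of membrane and actin, at -0.61 ± 0.56. Values of ezra were 56 and 18 in wild type against 20 and 21 in mutants, so its groups overlapped. cxcl12a, which encodes the attractant of germ cells, stood at 509 and 462 in wild type against 434 and 486 in mutants, and its receptor gene cxcr4b at 37 and 52 and at 43 and 31. Both were chosen after their values were seen, and both overlapped between the groups.

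**Figure D4:**
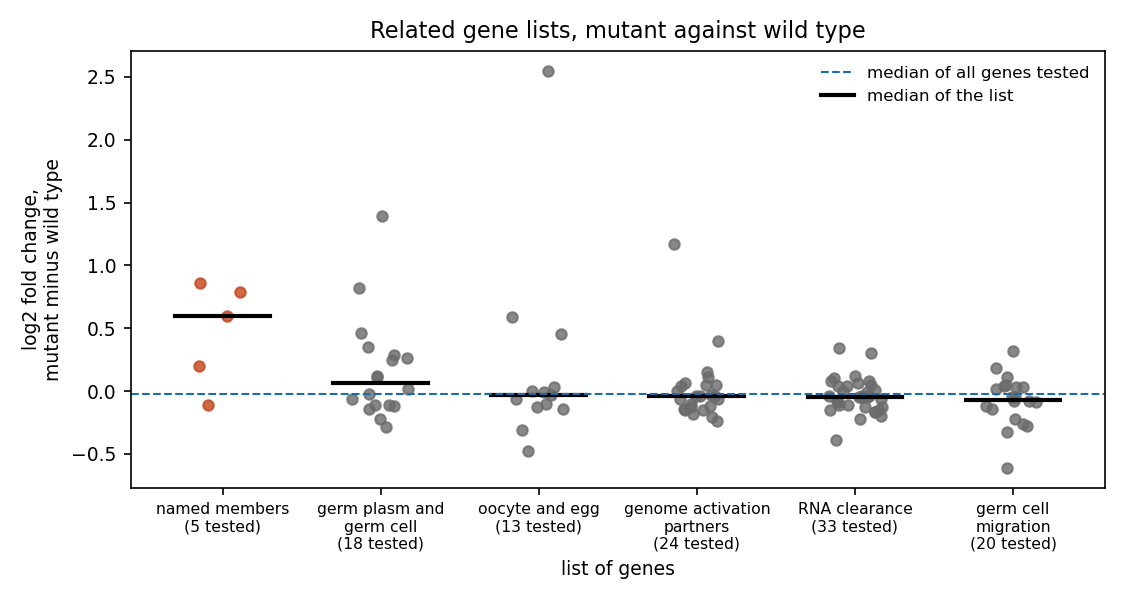
Log2 fold change, mutant minus wild type, of each tested gene (points) of the named set and 5 related lists, with each list's median (black line) and the median of all genes tested (dashed line, -0.02). The medians of the 5 lists lie between -0.07 and 0.06 and that of the 5 tested named genes at 0.60, and no gene shown passed the test.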

How the data were processed

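Total RNA of 4 whole-embryo libraries was sequenced as single reads of 75 bases from 10 ng of RNA, per the labels' protocols. Tools were STAR 2.4.0a and featureCounts 1.4.5-p1, with DESeq2 and the GRCz10 build, per the submitters' processing notes. These notes give no settings, the strand of counting included. Values in the deposited table are a score: counts that the authors multiplied by a factor for each library and then rounded, as read from the spacing of the values. Every gene reached at least 4 in some library. Because of this unit the test planned for raw counts was replaced by the one planned for normalised values, limma-trend (limma 3.58.1, R 4.3.3) on log2(value + 1) with group as the only term. Reads per value were taken from the spacing of the values, to within 1 read, and exact 95% intervals of their ratios cover counting error only. Tables and figures used Python 3.11.15, pandas 2.3.3, SciPy 1.17.1 and Matplotlib 3.10.9. The fit was tested on simulated data.

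The members and the 5 lists were chosen with earlier results of these data known. The text names every member, the 3 genes with the smallest p-values in each list, any gene past the test, and the list gene nearest in profile to a tested member with a mean value of at least 50. 14 alternatives were run, 1 of them chosen after seeing the data. No transcript length was used here, so the planned order of levels per kilobase was left out, and no sequence is shown. npas4l itself was not analysed here.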

Additional observations from a re-analysis of the deposited data

How the results depend on the processing

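No member passed the test under any of the 14 alternatives. For ca15b, buc and zar1, limma-voom gave SEs of 8.84, 11.49 and 9.23, too wide for any of them to pass. Under quantile normalization with no filter, zar1 was at -1.93 with an unadjusted limma p of 0.0487 (adjusted 0.966). pou5f3, nanog, piwil1 and buc stayed higher and zar1 lower in mutants under each alternative that gave them a value. With each library left out ddx4 ran from -0.18 to 0.59 and dnd1 from -0.70 to 0.49. Without mutant replicate 2, ddx4 stood at -0.18 and dnd1 at 0.49, and dnd1 at 0.08 without wild-type replicate 2, each opposite in sign to the value over 4 libraries. The median of the tested members was 0.54 with a pseudocount of 10, 0.65 with upper-quartile scaling and with totals free of mitochondrial and ribosomal RNA, 0.52 with quantile normalization and 0.66 with limma-voom. It ran from 0.52 to 0.67 with each library left out. This median is the value of 1 gene, so it does not describe the whole set. It was that of pou5f3 over 4 libraries, except under quantile normalization, where it was that of nanog. With a library left out it was that of pou5f3, piwil1 or ddx4. Over all genes, 8 passed, against 14 with upper-quartile scaling and 15 with those totals, and 6 to 274 with each library left out: 274 without mutant replicate 1 and 22 without mutant replicate 2. Fits without a library left out genes tied in the remaining pair and assume that the lone library varies like that pair. Without mutant replicate 1, where 1.68% of all genes passed, 26 higher and 248 lower, 2 of 33 RNA clearance genes and 3 of 24 partners of Pou5f3 and Nanog passed as lower, against 0 over 4 libraries. The cause of these moves was not tested. The replicate block called 9 genes and 0 members. Same-numbered libraries deviated from their group means with a correlation of 0.00896 over genes. With 2 pairs, this value cannot decide whether same-numbered libraries were paired. A change of 2-fold in at least 1 direction lies inside the 95% interval of each member except ddx4.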

Other observations

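Of the oocyte and egg genes with a row, 11 were under the mean value of 10, and mutant replicate 2 was the highest library in 7 of them. Among the 11, bmp15, an oocyte growth factor gene, was at 2 and 0 in wild type against 12 and 6 in mutants. ccna1, the cyclin of early cleavages, was at 4 in both wild-type libraries and 10 and 9 in mutants. Both genes were highest in mutant replicate 1. Of the 7 germ plasm and germ cell genes under that value, 5 were highest in mutant replicate 2: tdrd12, pld6, rgs14a, rbm46 and ca15a. Mutant replicate 2 was the highest in 68.1% of all genes under that value, and both counts are near that share. Every gene of the table reached at least 4 in some library, which rgs14a, rbm46 and ca15a did only in mutant replicate 2. bmp15 did so only in the mutant libraries. dazl, which encodes an RNA-binding protein of germ cells, followed the replicate number instead, at 0 and 2 in replicates 1 and 14 and 10 in replicates 2 of wild type and mutant. asz1, a germ granule gene, was at 9 and 4 in wild type against 0 and 1 in mutants. The genes named here were chosen after their values were seen. In the limma fit with no filter on low values, 0 of the 11 oocyte and egg genes and 0 of the 7 germ plasm and germ cell genes passed (lowest adjusted p 0.984 in both lists), and 0 of either had an unadjusted p under 0.05.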
